A study of Cavia porcellus with 10 samples.

Results

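Relaxin, oxytocin and vasopressin, prolactin, growth hormone, luteinizing hormone and parathyroid hormone act on the female reproductive tract through receptors on the cell surface. The transcripts of 8 genes that code for such receptors (RXFP1, RXFP2, OXTR, AVPR1A, PRLR, GHR, LHCGR and PTH1R) were followed in the guinea pig cervix from estrus to late pregnancy. The genes were chosen by name, and all 8 were found among the 25028 genes of the deposited table. GHR was matched through the species-specific protein entry name that stands in its row, GHR_CAVPO. The study sequenced poly-A selected RNA from the cervix of Hartley guinea pigs at 3 stages, with 1 library per animal. The non-pregnant females (NP, n = 3) were taken in estrus, the second group at mid-pregnancy (MT, n = 3), and the third late in pregnancy before labor (LT, n = 4). The pregnant animals came with uncertain mating dates and their stage was estimated from the size of the fetuses. The labels name no treatment. The vaginal portion of the cervix was taken, which limits but does not remove muscle of the uterus from the sample.

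The receptors fall into families with different signaling routes. RXFP1, RXFP2, OXTR, AVPR1A, LHCGR and PTH1R are G protein-coupled receptors, and PRLR and GHR are single-pass receptors of the cytokine family that signal through the kinase JAK2 and STAT transcription factors. RXFP1, RXFP2, LHCGR and PTH1R mainly raise cyclic AMP through the Gs protein, while OXTR and AVPR1A mainly act through Gq, phospholipase C and calcium. In the mammalian cervix relaxin is known for softening the connective tissue, and oxytocin is known for its part in contraction of the uterus at birth.

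Between 18730665 and 27881572 reads were counted on genes per animal, with 20047660 to 27351763 in NP, 18730665 to 25380420 in MT and 25804572 to 27881572 in LT. Levels are given in TPM, transcripts per 1000000 transcripts, a unit that accounts for transcript length and lets genes be compared with each other. A mean of 3 TPM is the level that the study used as its operational threshold for an active gene. Of the 8 receptors, 6 reached a mean of 3 TPM in at least 1 stage, and 2, AVPR1A and LHCGR, did not. Stages were compared by limma, fitted once to log2(TPM + 1) of the 10 animals, and P-values were adjusted by Benjamini-Hochberg over the 12645 genes that reached 3 TPM. AVPR1A and LHCGR were tested in the same way with a lower filter of 1 TPM, over 13955 genes. Fold changes are on this log2 scale, where the added 1 makes the change of receptors with few transcripts look smaller than it is, and SE is the standard error. All P-values are two-sided, and an adjusted P is limma's unless edgeR is named. The median gene tested had a fold change of -0.14 (NP to MT), -0.16 (MT to LT) and -0.28 (NP to LT) on this scale. In tissue RNA of this kind, fewer cells of a type and less RNA per cell cannot be told apart.

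**Figure D1:**
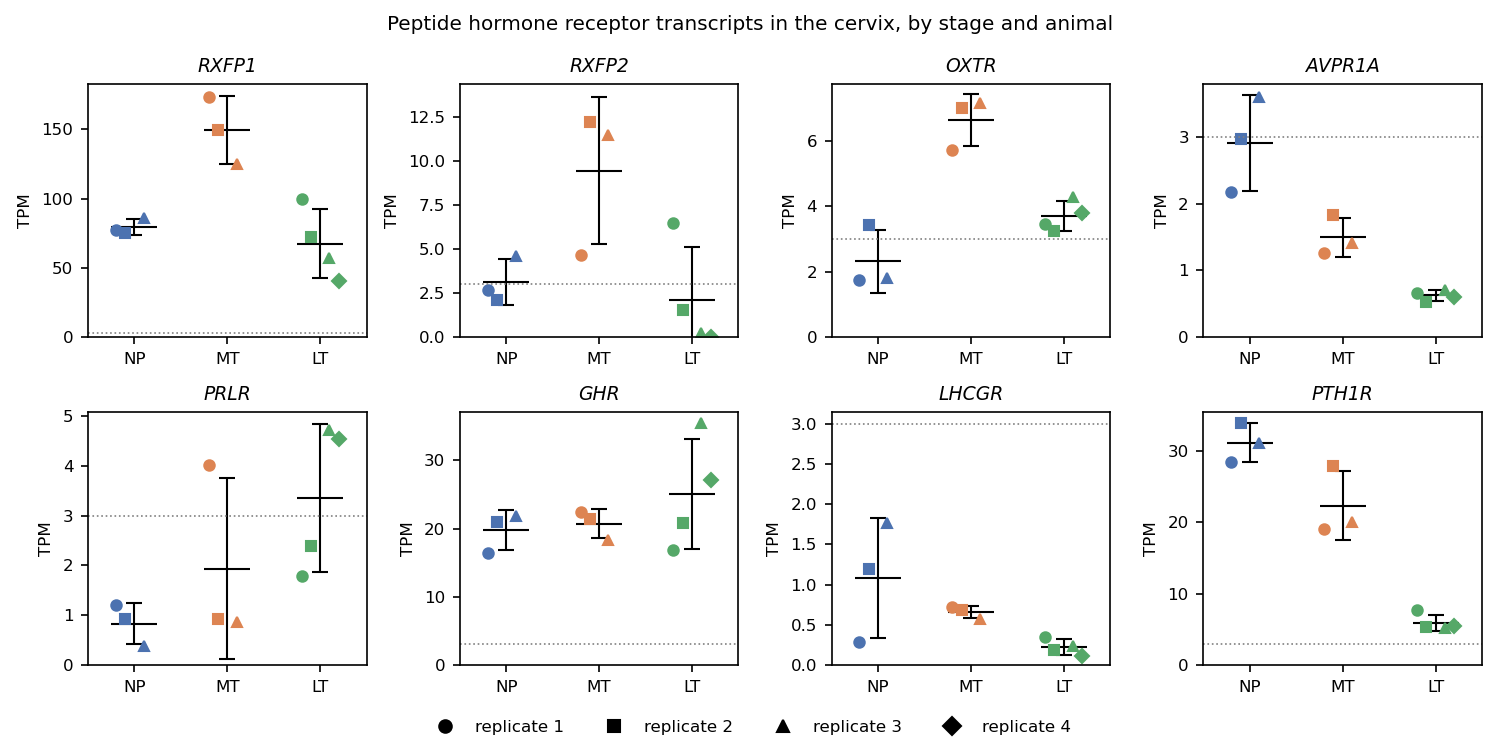
Level in TPM (vertical axes, each from 0) of the 8 receptor transcripts in NP, MT and LT, where each point is 1 animal, marker shapes give the replicate number, black lines give the mean with its SD (the bar of RXFP2 in LT is cut at 0) and the dotted line marks 3 TPM. RXFP1, RXFP2 and OXTR have their highest mean in MT, AVPR1A and PTH1R fall from stage to stage without overlap, and GHR overlaps between all stages.

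RXFP1 was the most abundant of the receptors at each stage. In NP its mean was 79.5 ± 5.72 TPM (SD, n = 3), or 56.5% of the summed means of the 8 receptors. In MT it was 149 ± 24.5 TPM (SD, n = 3), or 70.2%, and in LT 67.4 ± 25.0 TPM (SD, n = 4), or 62.2%. In NP the order was RXFP1, PTH1R, GHR, RXFP2, AVPR1A, OXTR, LHCGR and PRLR, and from RXFP2 downward each receptor overlapped with the next one among the animals. In MT the order was RXFP1, PTH1R, GHR, RXFP2, OXTR, PRLR, AVPR1A and LHCGR. There the overlaps were between PTH1R and GHR, between RXFP2 and OXTR, and between PRLR and AVPR1A. In LT the order was RXFP1, GHR, PTH1R, OXTR, PRLR, RXFP2, AVPR1A and LHCGR, and OXTR, PRLR and RXFP2 each overlapped with the next in that order. RXFP1 stayed apart from the second receptor at each stage, with a mean 2.55 times as high in NP, 6.68 times in MT and 2.69 times in LT.

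From NP to MT, limma found 2 of the 6 receptors over 3 TPM higher (RXFP1 and OXTR) and 0 lower, where 18.5% of all genes tested were called, 6.27% higher and 12.2% lower. With the 1 TPM filter, AVPR1A was lower and LHCGR was not called, where 17.7% of genes were called and 11.8% were lower. From MT to LT, 4 of the 6 were lower (RXFP1, RXFP2, OXTR and PTH1R) and 0 higher, where 29.4% of genes were called, 6.73% higher and 22.7% lower. AVPR1A again was lower with the 1 TPM filter, where 27.7% of genes were called and 21.3% were lower. Over the whole interval from NP to LT, 2 of the 6 were higher (OXTR and PRLR) and 1 lower (PTH1R), where 53.1% of genes were called, 11.2% higher and 41.9% lower. AVPR1A and LHCGR were both lower over this interval, where 51.9% of genes were called with the 1 TPM filter and 41.5% were lower. The animals of NP and MT did not overlap for 5 of the 8 receptors (RXFP1, RXFP2 and OXTR upward, AVPR1A and PTH1R downward), beside 34.5% of the genes over 1 TPM. Those of MT and LT did not overlap for 5 (RXFP1, OXTR, AVPR1A, LHCGR and PTH1R, all downward), beside 45.2% of genes. Those of NP and LT did not overlap for 3 (PRLR upward, AVPR1A and PTH1R downward), beside 51.7% of genes. These 3 comparisons share animals and are not independent of each other.

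**Figure D2:**
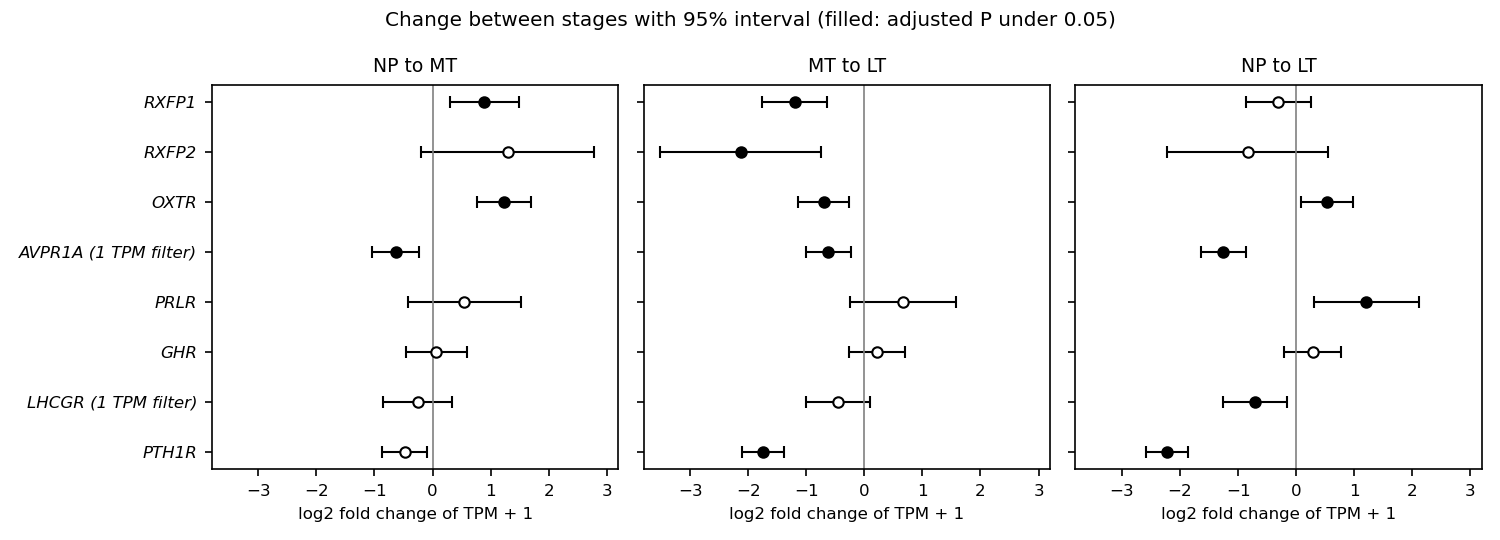
Fold change of the 8 receptors on the log2(TPM + 1) scale (horizontal axes) from NP to MT, from MT to LT and from NP to LT, with 95% intervals from limma and filled points where the adjusted P was under 0.05. OXTR at 1.23 and RXFP1 at 0.89 lie to the right from NP to MT, and PTH1R lies furthest to the left from NP to LT at -2.23.

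RXFP1 (ENSCPOG00000015517) is the receptor of relaxin. The NP animals had 77.4, 75.1 and 85.9 TPM, the MT animals 174, 150 and 125 TPM, and the LT animals 99.4, 72.1, 57.4 and 40.5 TPM, all resting on 2141 to 6304 reads. Every MT animal was above every NP and every LT animal, while NP and LT overlapped. RXFP1 rose from NP to MT by a log2 fold change of 0.89 (SE 0.27, adjusted P = 0.0444) and fell from MT to LT (log2 fold change -1.20, SE 0.25, adjusted P = 0.00822). An exact permutation test on square-root TPM gave P = 0.1 for the rise, the smallest that 3 animals against 3 allow, and P = 0.0571 for the fall, and the F statistic over the 3 stages gave an exact P = 0.00905. The rise was just past the threshold: it was lost in 9 of 22 alternative analyses, 1 of them limma without a filter and 8 those that left out 1 animal (any NP or MT animal or LT replicate 2 or 3), with adjusted P up to 0.116. The fall held in all 22. The difference between NP and LT was -0.31 (95% interval -0.86 to 0.25, adjusted P = 0.321), and its sign turned to 0.11 on the counts (edgeR without a filter, adjusted P = 0.758).

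RXFP2 (ENSCPOG00000009157), known as the receptor of insulin-like peptide 3 in testicular descent and able to bind relaxin as well, was far lower. It was measured at 2.70, 2.08 and 4.59 TPM in NP, at 4.68, 12.2 and 11.5 TPM in MT, and at 6.50, 1.55, 0.262 and 0.0378 TPM in LT. The MT animals were above the NP animals by a narrow margin, since MT replicate 1 was close to NP replicate 3, and LT replicate 1 lay inside the MT range. The mean was 3.12 ± 1.31 TPM in NP (SD, n = 3), 9.46 ± 4.16 TPM in MT (SD, n = 3) and 2.09 ± 3.01 TPM in LT (SD, n = 4). The change from NP to MT was 1.29 (SE 0.67, adjusted P = 0.195). From MT to LT RXFP2 fell (log2 fold change -2.13, SE 0.62, adjusted P = 0.0292), but this call was lost in 11 of 22 alternatives, among them edgeR without a filter (adjusted P = 0.184) and leaving out MT replicate 2 or 3 or LT replicate 2, 3 or 4. An exact permutation test gave P = 0.0857 for this step, and the exact P of the F statistic was 0.0643.

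The LT animals differed among themselves in RXFP2 more than in any of the other receptors. LT replicate 1 had 345 reads and LT replicate 4 had 2, a ratio of 172 in TPM with a 95% interval of 47.2 to 1424, which covers counting error alone. The SD of log2(TPM + 1) among the LT animals was 1.29 for RXFP2, where the median of all genes tested was 0.145 and 0.324% of genes were at least as variable. RXFP1 was also spread in LT, with an SD of 0.54 and 4.89% of genes at least as variable. The 4 LT animals came in the same order for both relaxin family receptors, from replicate 1 at the top to replicate 4 at the bottom. The NP animals also kept their order, with replicate 3 highest and replicate 2 lowest for both. In MT it was not so: replicate 1 had the highest RXFP1 (174 TPM) and the lowest RXFP2 (4.68 TPM). The ratio of RXFP1 to RXFP2 ran from 18.7 to 36.0 among the NP animals, from 10.8 to 37.1 in MT and from 15.3 to 1070 in LT. Over all 10 animals the log2 levels of RXFP1 and RXFP2 had a Pearson correlation of 0.88, a description of animals that also share their stage.

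Transcripts of the ligands of these receptors were scarce or not detected in the cervix. Relaxin, RLN3, INSL3 and INSL5 had 0 reads in all 10 animals, which for relaxin allows up to 0.108 to 0.160 reads per 1000000 counted reads, taking 3 reads as the limit that a count of 0 allows. INSL6, a family member without a known receptor among the 8 genes, had at most 12 reads. The other relaxin family receptors RXFP3 and RXFP4 had at most 5 and 3 reads per animal.

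OXTR (ENSCPOG00000020016), the oxytocin receptor, had its highest level in mid-pregnancy. The values were 1.74, 3.43 and 1.8 TPM in NP, 5.73, 7.01 and 7.16 TPM in MT, and 3.45, 3.26, 4.30 and 3.79 TPM in LT, on 40 to 189 reads. The MT animals were above all others, and NP replicate 2 alone of the NP animals reached into the LT range. The mean went from 2.32 ± 0.962 TPM (SD, n = 3) to 6.63 ± 0.789 TPM (SD, n = 3) and then to 3.70 ± 0.455 TPM (SD, n = 4), so that it crossed 3 TPM upward between NP and MT, as did the mean of 2.08% of the genes tested. OXTR rose from NP to MT by 1.23 (SE 0.21, adjusted P = 0.00465), and this call held in all 22 alternatives. It fell from MT to LT (log2 fold change -0.70, SE 0.20, adjusted P = 0.0255, exact permutation P = 0.0286, the smallest that 3 animals against 4 allow), and this call was lost in 10 of 22, among them edgeR without a filter (adjusted P = 0.0846) and leaving out MT replicate 2 or 3 or LT replicate 1, 2 or 4. The level in LT was above that in NP by 0.53 (SE 0.20, adjusted P = 0.0438), lost in 12 of 22. Those 12 include the leaving out of NP replicate 1 or 3, of MT replicate 2 or 3, or of any LT animal. The exact P of the F statistic was 0.000952.

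AVPR1A (ENSCPOG00000012086), the vasopressin receptor of vessels and smooth muscle and the closest relative of OXTR among the 8 genes, fell where OXTR rose. It had 2.17, 2.97 and 3.61 TPM in NP, 1.26, 1.83 and 1.41 TPM in MT, and 0.664, 0.527, 0.709 and 0.600 TPM in LT, on 17 to 86 reads. No animal of a later stage reached the level of any animal of an earlier stage. AVPR1A fell from 2.92 ± 0.718 TPM (mean, SD, n = 3) in NP to 0.625 ± 0.0792 TPM (SD, n = 4) in LT (log2 fold change -1.25, SE 0.17, adjusted P = 0.000422), and this held in 13 of 13 alternatives. Because of the low level this understates the change: the fold on the counts was 0.279 (edgeR without a filter, adjusted P = 0.000492). The steps were -0.64 from NP to MT (SE 0.18, adjusted P = 0.0397) and -0.62 from MT to LT (SE 0.17, adjusted P = 0.0255). The first step was lost in 10 of 13 alternatives, among them edgeR (adjusted P = 0.0828) and leaving out any animal but NP replicate 1. The second was lost in 5 of 13, those without MT replicate 2 or 3 or LT replicate 2, 3 or 4. The exact P of the F statistic was 0.000476, the smallest that 4200 splits of the animals gave.

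The ratio of OXTR to AVPR1A in TPM lay between 0.498 and 1.16 in the NP animals, between 3.84 and 5.06 in the MT animals and between 5.20 and 6.31 in the LT animals. The ratio thus separated the 3 stages without overlap. AVPR2, the renal vasopressin receptor, had 0.0788 to 0.646 TPM in the NP animals, 1.39 to 3.80 TPM in MT and 0.381 to 1.86 TPM in LT, on 2 to 94 reads, and AVPR1B had 9 to 57 reads per animal. Of the ligands, OXT had a mean of 1.45, 2.73 and 2.87 TPM in NP, MT and LT on 4 to 36 reads, and AVP had at most 11 reads. LNPEP, the enzyme known as oxytocinase, was at -0.06 from NP to MT (adjusted P = 0.811) and fell from MT to LT (log2 fold change -0.56, adjusted P = 0.0187, or 0.0678 with edgeR without a filter).

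Smooth muscle is a site of oxytocin action, and 11 smooth muscle markers were measured in the same libraries. Their sum was 32140, 11538 and 9056 TPM in the NP animals, 13429, 20173 and 15542 TPM in MT, and 19816, 19859, 39245 and 40659 TPM in LT. NP replicate 1, with the third highest marker sum, had the lowest OXTR level of all animals, and the MT animals had the highest OXTR at middle marker sums. The part of smooth muscle in the level of OXTR was not tested. From NP to MT limma called 0 of the 11 markers (0 also at an unadjusted P under 0.05, and 0 with edgeR), where 18.5% of all genes were called, and from MT to LT 1 was higher and 0 lower, where 6.73% of all genes were higher and 22.7% lower.

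**Figure D3:**
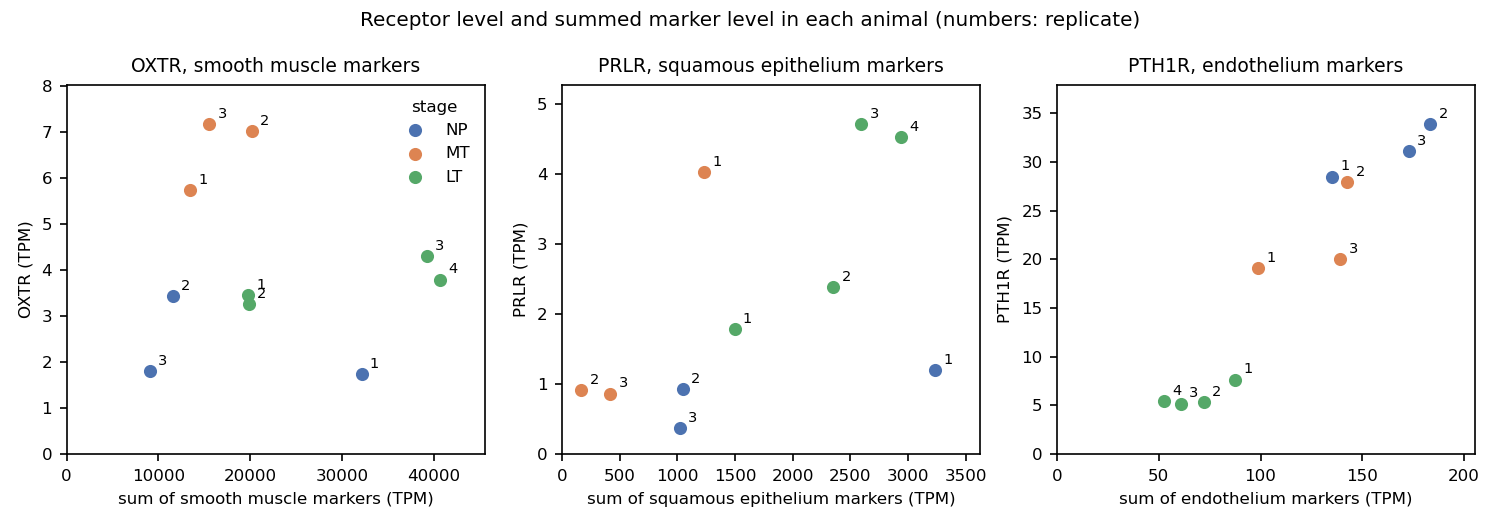
Level of OXTR, PRLR and PTH1R in TPM (vertical axes) against the summed TPM of smooth muscle, squamous epithelium and endothelium markers (horizontal axes), 1 point per animal, coloured by stage and numbered by replicate. The MT animals stand above the others for OXTR, LT replicates 3 and 4 are high on both axes for PRLR, and the LT animals are low on both axes for PTH1R.

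PRLR (ENSCPOG00000004601), the prolactin receptor, was low in estrus and reached 3 TPM in some pregnant animals. The values were 1.20, 0.929 and 0.371 TPM in NP, 4.03, 0.916 and 0.866 TPM in MT, and 1.78, 2.38, 4.72 and 4.54 TPM in LT, on 13 to 225 reads. All LT animals were above all NP animals, while MT replicate 1 stood in the range of LT and the other MT animals in the range of NP. PRLR rose from 0.832 ± 0.422 TPM (SD, n = 3) in NP to 3.36 ± 1.49 TPM (SD, n = 4) in LT, by 1.21 (SE 0.41, adjusted P = 0.0300). The call was lost in 4 of 20 alternatives, among them those without NP replicate 2 or 3. PRLR reached a mean of 3 TPM only in LT. Without LT replicate 3 or 4 its LT mean of 2.90 or 2.96 TPM was under the filter, so the call was not tested without either animal. The exact permutation P was 0.0571 for NP against LT, and that of the F statistic was 0.0852. Neither step was called on its own, with 0.54 from NP to MT (adjusted P = 0.399) and 0.67 from MT to LT (adjusted P = 0.236), though the second passed without MT replicate 1 (adjusted P = 0.0466). The SD among the MT animals was 0.82 on the log2 scale, and 2.11% of all genes were at least as variable there.

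The animal that set MT apart for PRLR also had the highest sum in MT of markers of squamous epithelium, the layered lining of the vaginal side of the cervix. The sum of 6 squamous markers was 1232 TPM in MT replicate 1, 168 TPM in MT replicate 2 and 418 TPM in MT replicate 3. In LT it was 1497, 2352, 2594 and 2941 TPM, with the lowest PRLR in the animal with the lowest sum. In NP it was 3235, 1048 and 1021 TPM, and NP replicate 1, with the highest sum of all animals, had 1.20 TPM of PRLR. Most of each sum was KRT14, a keratin of the basal layer, with 1142 of the 1232 TPM in MT replicate 1. DSG3, a protein of cell junctions, had 36.3 TPM in that animal and 4.31 and 5.43 TPM in the other MT animals. The markers of differentiated squamous cells were low in MT, with IVL and TGM1 at most 3.25 TPM and SPRR3 at most 0.165 TPM. From NP to LT these 3 of the 6 markers were lower and 0 were higher, near the 41.9% of all genes that were lower. With edgeR 3 were lower, beside 25.8% of all genes. With median-ratio scaling or quantile normalization 2 were lower, beside 25.0% and 23.8% of all genes. From NP to MT 3 of the 6 were lower and 0 higher, beside 12.2% and 6.27% of all genes. The part of squamous epithelium in the level of PRLR was not tested.

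GHR (ENSCPOG00000014345), the growth hormone receptor, was well expressed at each stage. The values were 16.5, 21.0 and 21.9 TPM in NP, 22.4, 21.4 and 18.3 TPM in MT, and 16.9, 20.8, 35.4 and 27.2 TPM in LT, on 838 to 2164 reads. The stages overlapped, and the spread was widest in LT, where replicate 3 had 2.10 times the level of replicate 1. The differences were 0.07 from NP to MT (95% interval -0.45 to 0.59, adjusted P = 0.859), 0.22 from MT to LT (95% interval -0.27 to 0.71, adjusted P = 0.475) and 0.29 from NP to LT (95% interval -0.20 to 0.77, adjusted P = 0.293). The last was called in 4 of 22 alternatives (quantile normalization, edgeR with and without a filter, and DESeq2), for example edgeR without a filter (0.72, adjusted P = 0.0305). The exact P of the F statistic was 0.523.

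PRLR and GHR share the JAK-STAT route, and of 11 measured genes of that route and its inhibitors 0 were higher and 2 lower from NP to MT, 1 higher and 3 lower from MT to LT, and 0 higher and 6 lower from NP to LT. Their median was -0.32, -0.06 and -0.27 in these comparisons, beside -0.14, -0.16 and -0.28 for all genes, of which 6.27%, 6.73% and 11.2% were higher and 12.2%, 22.7% and 41.9% lower. The kinase JAK2, which both receptors use, was -0.21 from NP to MT (adjusted P = 0.150) and -0.06 from MT to LT (adjusted P = 0.664). From NP to LT it was lower by limma (log2 fold change -0.27, adjusted P = 0.0302), near the -0.28 of the median gene, and at 0.0055 with edgeR (adjusted P = 0.965). SOCS3, an inhibitor that cytokines induce, rose from MT to LT by 1.43 (adjusted P = 0.0372). JAK1 and TYK2, kinases of other cytokine receptors, fell from MT to LT, with -0.48 (adjusted P = 0.0155) and -0.50 (adjusted P = 0.0446). With edgeR the adjusted P was 0.0340 for JAK1, or 0.0705 without a filter, and 0.0700 for TYK2. With edgeR, under which the median gene lay within 0.03 of no change, 2 of the 11 were higher and 1 lower from MT to LT, beside 13.4% and 15.6% of all genes, and 1 was higher and 4 lower from NP to LT, beside 23.6% and 25.8%. The growth hormone transcript GH1 had at most 5 reads per animal, and prolactin was not analysed here.

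LHCGR (ENSCPOG00000015685), the receptor of luteinizing hormone and chorionic gonadotropin, had the lowest mean of the 8 in both stages of pregnancy. The values were 0.291, 1.19 and 1.77 TPM in NP, 0.724, 0.685 and 0.573 TPM in MT, and 0.344, 0.181, 0.240 and 0.108 TPM in LT, on 5 to 65 reads. The LT animals were below all MT animals, and NP replicate 1 was the NP animal that fell among the LT values. LHCGR fell from NP to LT (log2 fold change -0.71, SE 0.25, adjusted P = 0.0352, or 0.0176 with edgeR without a filter), and this was lost in 4 of 11 alternatives, those without NP replicate 2 or LT replicate 2, 3 or 4. LHCGR reached a mean of 1 TPM only in NP. Without NP replicate 3 its NP mean of 0.740 TPM was under the filter, so the fall was not tested without that animal. The step from NP to MT was -0.26 (adjusted P = 0.515) and that from MT to LT -0.45 (adjusted P = 0.193, exact permutation P = 0.0286). Both passed without NP replicate 1 (adjusted P = 0.0400 and 0.0410). Of markers of steroid-producing cells of the ovary, the main site of this receptor, CYP17A1, CYP11A1 and AMH stayed under 3 TPM in every animal and 5 markers summed to 2.08 to 9.09 TPM. Of these 5, 2 reached a mean of 3 TPM and were tested, with 1 higher and 1 lower both from MT to LT and from NP to LT. Of all genes 6.73% were higher and 22.7% lower from MT to LT, and 11.2% and 41.9% from NP to LT. CGA, the alpha subunit of the ligands of LHCGR, had at most 2 reads, and FSHR, the related receptor of follicle-stimulating hormone, had 0 reads in all animals.

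PTH1R (ENSCPOG00000003882), the receptor of parathyroid hormone and of the locally made PTH-related protein, known to relax smooth muscle of vessels and uterus, had the largest fall of the 8 receptors from NP to LT by limma. The values were 28.5, 33.9 and 31.1 TPM in NP, 19.1, 27.9 and 20.1 TPM in MT, and 7.65, 5.32, 5.18 and 5.46 TPM in LT, on 231 to 1165 reads. The 3 stages did not overlap, and the gap between MT and LT was wider than that between NP and MT. PTH1R fell from 31.2 ± 2.70 TPM (SD, n = 3) in NP to 5.90 ± 1.17 TPM (SD, n = 4) in LT (log2 fold change -2.23, SE 0.16, adjusted P = 4.22e-05). From MT, with 22.4 ± 4.84 TPM (SD, n = 3), to LT it fell (log2 fold change -1.75, SE 0.16, adjusted P = 0.00162). Both calls held in all 22 alternatives, the exact permutation P was 0.0286 for each, and that of the F statistic was 0.000476. The step from NP to MT was -0.48 (SE 0.17, adjusted P = 0.0808) and passed in 2 of 22 alternatives, those on square-root TPM and without MT replicate 2.

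Endothelial markers fell over the same interval. Their sum over 6 genes was 135, 183 and 173 TPM in NP, 98.7, 143 and 139 TPM in MT, and 87.4, 72.1, 60.8 and 52.6 TPM in LT, and 6 of the 6 were lower from NP to LT, where 41.9% of all genes were lower. The count was also 6 with edgeR, median-ratio scaling and quantile normalization, beside 25.8%, 25.0% and 23.8% of all genes. From MT to LT 5 were lower by limma (22.7% of all genes), but 3 with edgeR (15.6%) or median-ratio scaling (15.3%) and 2 with quantile normalization (13.2%). The highest LT animal was replicate 1 for the markers as for PTH1R. Of 6 fibroblast markers 2 were lower from NP to LT, a smaller share than the 41.9% of all genes: PDGFRA (-1.18, adjusted P = 0.00134) and PDGFRB (-1.10, adjusted P = 0.000675). From MT to LT PDGFRA was lower (-1.59, adjusted P = 0.00187), PDGFRB was lower by limma (-0.56, adjusted P = 0.0324, or 0.114 with edgeR without a filter) and LUM was higher (0.91, adjusted P = 0.00761). The part of endothelial cells or fibroblasts in the level of PTH1R was not tested. Of the ligands, PTHLH, which codes for PTH-related protein, had 0.578 to 1.13 TPM in the NP animals, 0.115 to 0.349 TPM in MT and 0.239 to 2.14 TPM in LT, on 1 to 29 reads, and PTH had at most 2 reads. The second receptor of the family, PTH2R, had at most 3 reads.

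The ratio of GHR to PTH1R was 0.578 to 0.703 in the NP animals, 0.767 to 1.17 in MT and 2.20 to 6.84 in LT. In TPM, PTH1R was thus above GHR in every NP animal and below it in every LT animal.

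When MT was set against the mean of NP and LT in the same fit, 3 of the 6 receptors over 3 TPM were higher in MT (RXFP1, OXTR and PTH1R) and 0 lower, where 8.22% of genes were called, 4.6% higher and 3.61% lower. The values were 1.04 for RXFP1 (SE 0.23, adjusted P = 0.0226), 0.97 for OXTR (SE 0.18, adjusted P = 0.0120) and 0.64 for PTH1R (SE 0.15, adjusted P = 0.0283). For 2 of the 8 receptors, RXFP1 and OXTR, every MT animal was above every NP and LT animal, and for 8.05% of the genes over 1 TPM MT lay outside both other stages. For PTH1R it was not so: its MT animals lie between NP and LT, and the positive value says that MT is closer to NP than to LT on the log scale. RXFP2 had 1.71 (SE 0.56, adjusted P = 0.0928), which passed without LT replicate 1 (adjusted P = 0.0159). The calls of RXFP1, OXTR and PTH1R were each lost without MT replicate 2 and without MT replicate 3, and that of RXFP1 also without MT replicate 1. Of 21 alternatives 3 lost the call of RXFP1, 3 that of OXTR (the other with limma and the replicate block) and 8 that of PTH1R (also on square-root TPM, without LT replicate 2, 3 or 4 and with the replicate block in limma or edgeR).

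Of the genes that carry the signals of these receptors inside the cell, 17 of the Gs and cyclic AMP route were tested. From NP to MT 2 were higher and 1 lower, from MT to LT 0 and 5, and from NP to LT 1 and 5, with medians of -0.02, -0.24 and -0.40. Of all genes 6.27% were higher and 12.2% lower from NP to MT, 6.73% and 22.7% from MT to LT, and 11.2% and 41.9% from NP to LT. PDE4B, a phosphodiesterase that degrades cyclic AMP, rose from NP to MT by 2.05 (adjusted P = 0.00108) and fell from MT to LT (log2 fold change -0.90, adjusted P = 0.0187). ADCY1, an adenylyl cyclase that makes it, rose by 1.34 (adjusted P = 0.0237) and then fell by 1.74 on that scale (adjusted P = 0.00504). CREB1, a transcription factor of the route, fell from NP to LT (log2 fold change -0.85, adjusted P = 0.000220), and GNAS, the Gs protein itself, was at -0.06 (adjusted P = 0.496). With edgeR 3 of the 17 were higher and 3 lower from NP to LT, beside 23.6% and 25.8% of all genes, and with median-ratio scaling 5 were higher and 2 lower, beside 24.7% and 25.0%.

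Of 13 genes of the Gq and phospholipase C route, 1 was higher and 0 lower from NP to MT, 0 and 5 from MT to LT, and 1 and 6 from NP to LT, with medians of -0.07, -0.25 and -0.30. The share lower from NP to LT was near the 41.9% of all genes. From NP to MT 6.27% of all genes were higher, and from MT to LT 22.7% were lower. The lower genes were fewer under the other settings: from MT to LT there were 3 with edgeR, 2 with median-ratio scaling and 1 with quantile normalization (15.6%, 15.3% and 13.2% of all genes), and from NP to LT 3, 3 and 2 (25.8%, 25.0% and 23.8%). ITPR1, the calcium channel of the internal stores, fell from MT to LT (log2 fold change -0.81, adjusted P = 0.00376). PLCB1, a phospholipase C, fell from NP to LT (-0.73, adjusted P = 0.00108, or 0.0270 with edgeR and 0.0561 with edgeR without a filter), while PRKCD, a protein kinase C, rose from NP to MT by 0.72 (adjusted P = 0.0101). GNAQ was at 0.05 and -0.02 in the steps (adjusted P = 0.891 and 0.942). Of 8 genes that switch receptors off, 0 were higher and 1 lower from NP to MT, where 6.27% of all genes were higher and 12.2% lower. From MT to LT 1 was higher and 0 lower, where 6.73% and 22.7% of all genes were. From NP to LT 1 was higher and 4 lower, where 11.2% of all genes were higher and 41.9% lower. With edgeR 1 was higher and 2 lower, beside 23.6% and 25.8% of all genes. The counts were 1 and 2 with median-ratio scaling, beside 24.7% and 25.0%, and 2 and 3 with quantile normalization, beside 21.3% and 23.8%. GRK5, a receptor kinase, rose from NP to LT by 0.73 (adjusted P = 0.00128), and RGS4, which shortens G protein signals, fell by 2.00 (adjusted P = 0.000635).

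The genes whose levels followed each receptor most closely were sought among 11410 named genes by Pearson's correlation of log2(TPM + 1) over the 10 animals, which contains the difference between stages. For RXFP1 these were HS3ST5 (0.947), RNF182 (0.945) and PCYOX1L (0.944), and for RXFP2 CACFD1 (0.953), DNAJC6 (0.952) and EPHB1 (0.951). For OXTR they were C12orf39 (0.953), KNDC1 (0.953) and PDE4B (0.951), the phosphodiesterase named above. For PRLR they were PTK6 (0.962), KRT1 (0.959), a keratin of stratified epithelium, and STARD5 (0.952), and for GHR CHIT1 (0.960), LMO3 (0.881) and EYA1 (0.872). For PTH1R they were DENND5A (0.997), SRPK2 (0.993) and CBS (0.993).

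Other receptors of peptide hormones were measured as well. Of 54 such genes listed, with the RAMP accessory proteins, 43 have a row and 16 reached 3 TPM. From NP to MT 2 were higher and 0 lower, from MT to LT 0 and 5, and from NP to LT 1 and 8 (3 and 7 with edgeR or median-ratio scaling, 2 and 5 with quantile normalization), with medians of 0.17, -0.52 and -0.39. Of all genes 6.27% were higher from NP to MT, 22.7% lower from MT to LT, and 11.2% higher and 41.9% lower from NP to LT. By limma on TPM the share of these receptors lower from NP to LT was near that. Under edgeR 23.6% of all genes were higher and 25.8% lower from NP to LT. The shares were 24.7% and 25.0% with median-ratio scaling, and 21.3% and 23.8% with quantile normalization. EDNRB, an endothelin receptor, rose from NP to MT by 1.18 (adjusted P = 0.0352) and fell from MT to LT (-1.46, adjusted P = 0.00886), so that it was highest in MT like RXFP1. ADIPOR2, an adiponectin receptor, rose from NP to MT by 1.05 (adjusted P = 0.00190). It fell from MT to LT (-0.53, adjusted P = 0.0196, or 0.0830 with edgeR without a filter), so that it too was highest in MT. For MT against the mean of NP and LT, 3 of the 16 were higher and 0 lower, beside 4.6% and 3.61% of all genes. NPR2, the receptor of C-type natriuretic peptide, fell from MT to LT (-1.44, adjusted P = 0.00417), and RAMP3 fell by 1.37 (adjusted P = 0.00637). AGTR1, the angiotensin receptor, fell from NP to LT (-1.43, adjusted P = 0.00157), and NPY1R, a receptor of neuropeptide Y, fell by 1.23 (adjusted P = 0.00113).

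**Figure D4:**
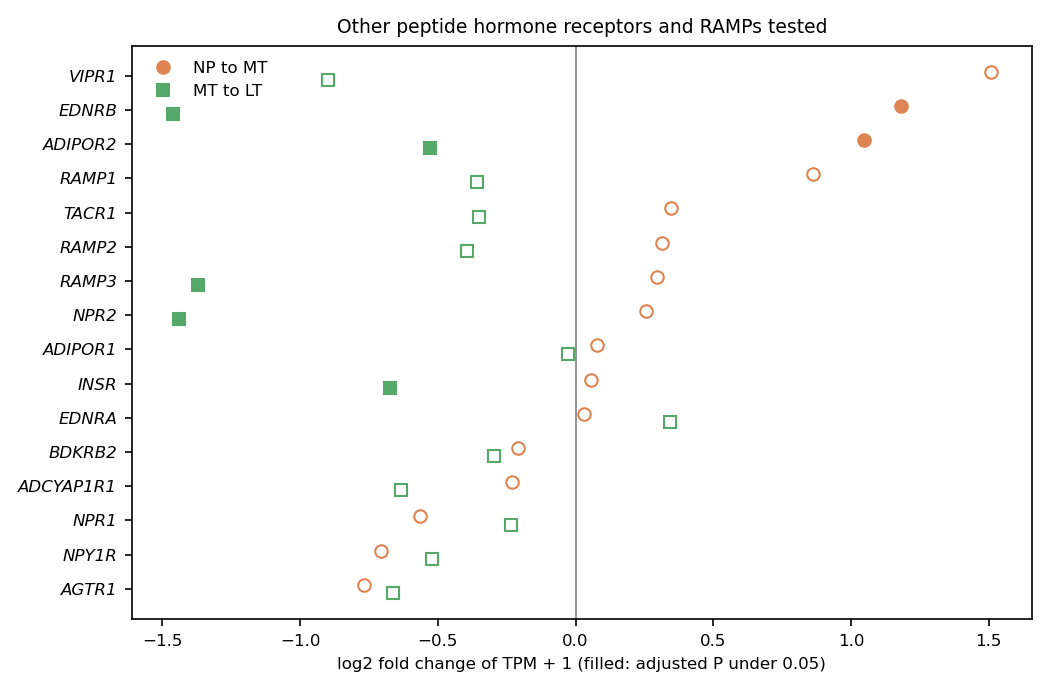
Fold change on the log2(TPM + 1) scale (horizontal axis) of the 16 other peptide hormone receptors and RAMP proteins tested (vertical axis), with circles for NP to MT, squares for MT to LT and filled symbols where the adjusted P was under 0.05. EDNRB and ADIPOR2 are called to the right from NP to MT, and 5 genes are called to the left from MT to LT.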

How the data were processed

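RNA of 10 guinea pig cervices was sequenced as strand-specific single reads. The authors aligned the reads with TopHat2, counted them per gene with HTSeq 0.5.4p1 and derived TPM from the counts. Counts and TPM were used as deposited, and the strand setting of the counting is not given in the sources used here. TPM of an animal sum to a fixed total, so a receptor also moves with all other genes. The receptors and gene lists were chosen with earlier results of these data known. Genes of the lists are named where they changed most (up to 3 per list, direction and comparison, adjusted P under 0.05, stages not overlapping), as are ligands and, per receptor over 3 TPM, the 3 genes most like it. JAK2, GNAS, GNAQ and further receptors of the ligands were named after their values were seen. GHR and 21 genes of the lists, among them relaxin, AVP, GH1, CGA, FSHR, AGTR1, NPY1R and RAMP3, were matched through guinea pig protein entry names, and genes found under neither name were not analysed here. The values of 1 gene that the naming rule picks are not reported here. Alternatives changed the scale, pseudocount, filter, scaling, tool (edgeR quasi-likelihood, DESeq2), replicate block, stages fitted and animals, 1 at a time, except that edgeR was also run without a filter and with the replicate block. Leaving out animals under the 1 TPM filter was added after the data were seen. The software was R 4.3.3 with limma 3.58.1, DESeq2 1.42.0 and edgeR 4.0.16. On simulated counts of 12258 genes limma recovered 35.4% of 2-fold and 97.9% of 4-fold changes from NP to MT (8.5% false calls), and 50% and 100% from MT to LT (4% false calls). The simulation gave all genes the same spread between animals beyond counting error and changed a small set of genes, in MT only. In the real data the spread differed between genes and many more were called, so these rates may not hold for the receptors.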

Additional observations from a re-analysis of the deposited data

Results flagged for a closer look

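PTH1R in LT replicate 1 had 7.65 TPM, where the other LT animals had 5.18 to 5.46 TPM, a gap of 0.887 of the range that is past Dixon's 95% critical value of 0.829 for 4 animals. It was 1 of 8 receptors checked in this way, and chance flags about 1 group in 20. The same test marked CGA and GH1 in LT among 57 other genes, because 1 animal of each had 0 TPM and the others a few reads. PTH1R in this animal was below every NP and MT animal, and its calls from MT to LT and from NP to LT held without it.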

How the results depend on the processing

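Of the calls reported for the receptors, the rise of OXTR from NP to MT, the falls of RXFP1 and PTH1R from MT to LT and those of PTH1R and AVPR1A from NP to LT held under every alternative run for them. The others were each lost under at least 1 alternative. The number of receptors called from MT to LT was 4 of 6, and 2 with quantile normalization and with edgeR. From NP to LT it was 3 of 6, and 5 of 8 with the 1 TPM filter and 6 of 8 with edgeR without a filter. Leaving out 1 animal gave 1 to 2 receptors from NP to MT, 2 to 5 from MT to LT, 1 to 3 from NP to LT and 0 to 4 for MT against the mean of NP and LT. The genes called among all tested were 2342 from NP to MT (1103 with those stages alone, 1099 without MT replicate 3 to 4202 without NP replicate 1), 3723 from MT to LT (1944 without MT replicate 2 to 5354 without NP replicate 1) and 1039 for MT against the mean (2327 with DESeq2, 364 to 1611 with 1 animal left out). The cause of these differences was not tested.

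Signs turned in some uncalled values. RXFP1 from NP to LT was -0.31, but 0.044 with edgeR, 0.11 with edgeR without a filter, 0.045 with DESeq2 and 0.19 with edgeR and the replicate block. GHR from NP to MT ran from -0.053 to 0.15 with 1 animal left out. In MT against the mean of NP and LT, AVPR1A was 0.13 with edgeR without a filter and, with the 1 TPM filter, 0.053 without NP replicate 3, 0.060 without MT replicate 1, 0.013 without MT replicate 3 and 0.0028 without LT replicate 3. LHCGR was -0.060 with that filter and without NP replicate 1. PRLR was 0.15 with edgeR, 0.14 without a filter, 0.16 with DESeq2, 0.0080 with the replicate block and -0.53 to 0.18 with 1 animal left out, and GHR was -0.16 to 0.015.

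The replicate numbers do not pair the animals: same-numbered animals had correlations of -0.287 to 0.254 in their deviations from the stage means, and 2 of 9 matched best with their own number. With the replicate block limma called 2 receptors and 1693 genes from MT to LT, 1 receptor from NP to LT, and 1 receptor and 452 genes for MT against the mean. With edgeR and the replicate block 1507 genes were called from NP to MT, 2 receptors and 1911 genes from MT to LT, and 551 genes for MT against the mean. Receptors with few reads, LHCGR (5 to 65), AVPR1A (17 to 86) and RXFP2 in LT (2 to 345), are limited by depth.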

Other observations

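Within LT, replicate 1 had the highest level of RXFP1, RXFP2, LHCGR and PTH1R and the lowest of PRLR and GHR. Across 12645 genes its log2 levels had a correlation of 0.957 with the MT mean, where the other LT animals had 0.953, 0.941 and 0.937. The mucus-secreting epithelium, measured by 7 markers of which TFF3 stayed under 3 TPM, summed to 395 to 640 TPM in NP, while the MT animals had 2109 to 4865 TPM and the LT animals 7236 to 10080 TPM. Of its 5 markers tested, 5 were higher in LT than in NP, where 11.2% of all genes were higher. In LT this sum was lowest in replicate 1 at 7236 TPM and highest in replicate 4.

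Sums of fibroblast markers, whose members moved in both directions from MT to LT (1 higher and 2 lower of 6, beside 6.73% and 22.7% of all genes), ran from 749 to 1149 TPM over all animals, those of leukocytes from 88.7 to 236 TPM, those of adipocytes from 228 to 765 TPM and those of nerve and glia from 55.7 to 90.9 TPM. The adipocyte markers PLIN1 and CIDEC and the glial markers S100B and SOX10 stayed under 3 TPM in every animal.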
